A study of Drosophila melanogaster with 4 samples.

Results

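Long runs of closely spaced peaks of histone H3 monomethylated at lysine 4 (H3K4me1) were described in S2-DRSC cells, an established Drosophila melanogaster line from late embryos that is labelled male. Peaks of the 6 chromosome arms 2L, 2R, 3L, 3R, 4 and X were linked where the next peak started less than 2000 bases after the end of the one before. A long run was a chain of 6 or more linked peaks in which no peak was 4000 bases wide or wider. This gave 177 runs with 1311 member peaks, which were 16.3% of the 8019 peaks on the arms and 11.7% of the 11173 peaks in the whole list. The study compared chromatin precipitated with a rabbit polyclonal antibody against H3K4me1 (2 libraries) with input DNA, the sheared chromatin before precipitation (2 libraries), all from the same line and with no treatment named in the labels. The 1 peak list of the series carries no value per library, so the spreads below are over peaks or runs and not over replicates.

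H3K4me1 marks nucleosomes at enhancers and beside active promoters, and in Drosophila the methyltransferase Trr is known to place it at enhancers. Regulatory regions of developmental genes often hold several enhancers in a row, and a strip of marked nucleosomes can be broken where factors have displaced a nucleosome. A peak caller can turn such a landscape either into 1 broad peak or into a row of separate peaks. The long runs are rows of separate peaks chosen by the rule above. Shorter runs and runs with a broad peak also hold separate peaks, but are not counted as long runs. Whether the long runs lie over several enhancers or over displaced nucleosomes was not tested. Members were chosen by peak position and peak width, and the authors' score comes from the same contrast of ChIP with input. All values below are therefore descriptions, and none was tested.

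Long runs were strips of several kb in which peaks filled more bases than gaps did. The median run was 8842 bases long, with quartiles of 6880 and 11945 bases and a range from 3287 to 26219 bases (mean 9793 ± 3983 SD, n = 177 runs). Peaks covered a median of 66.0% of a run, with quartiles of 58.3% and 74.0% and a range from 27.1% to 91.9% (mean 65.9% ± 11.2 SD). At least 50% of the bases lay inside peaks in 166 of the 177 runs, and 80% or more in 16. Together the runs spanned 1.73 Mb, or 1.45% of the arms between their first and last peaks, and their peaks summed to 1.15 Mb, or 13.0% of the 8.87 Mb covered by all arm peaks.

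Most runs were near the minimum of 6 peaks. There were 73 runs of 6 peaks, 42 of 7, 24 of 8 and 18 of 9, and 20 runs held 10 or more, up to 15. Runs with more peaks were longer but not more filled. The median length was 7252 bases for 6 peaks and 16359 bases for 10 or more, while the median covered share was 66.4% in both. Across the 177 runs Spearman's rho between length and covered share was 0.11, and between number of peaks and covered share 0.01. Runs are no independent replicates, and all share 1 list.

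**Figure D1:**
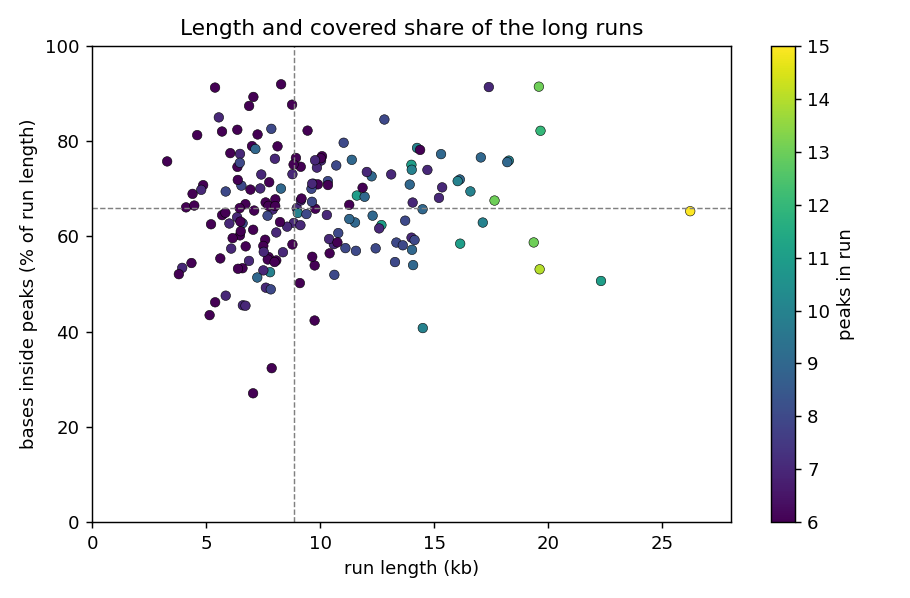
Each point is 1 of the 177 long runs, with its length in kb on the x axis and the percent of its bases inside peaks on the y axis, coloured by its number of peaks. Dashed lines mark the medians of 8842 bases and 66.0%. Runs with many peaks lie to the right, and the covered share shows no trend with length.

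The values beside the thresholds were as follows. The widest gap inside a long run was 1995 bases and the smallest gap between arm peaks that was not linked was 2000 bases. On the arms, 60 gaps measured from 1900 to under 2000 bases and 53 from 2000 to under 2100, so gap counts showed no step at the threshold. Below the minimum size lay 104 runs of 5 peaks without a broad peak, with a median length of 6954 bases and a median covered share of 67.4%, close to the 7252 bases and 66.4% of the long runs of 6. Of the 240 runs of 6 or more peaks, 63 were left out because they held a peak of 4000 bases or more. The widest peak kept in a long run was 3979 bases wide, and the smallest widest peak of the runs left out was 4052 bases. Gap counts thus ran on across the gap limit, and run lengths and covered shares across the limit of run size. Peak widths and scores were less alike there. Their medians were 627 bases and 18.6 in the runs of 5 without a broad peak. In the long runs of 6 they were 535.5 bases and 16.4. For the limit on broad peaks, only the widths nearest to it are given here.

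Gaps inside the runs were mostly far below the limit. The median of the 1134 gaps was 326 bases, with quartiles of 159 and 697 bases. Of all gaps, 15.8% were below 100 bases, 31.3% below 200, 63.6% below 500 and 83.2% below 1000. The smallest gap was 51 bases, which is also the smallest between any neighbours on the arms. Whether the caller joins regions closer than that is not given in the sources used here.

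**Figure D2:**
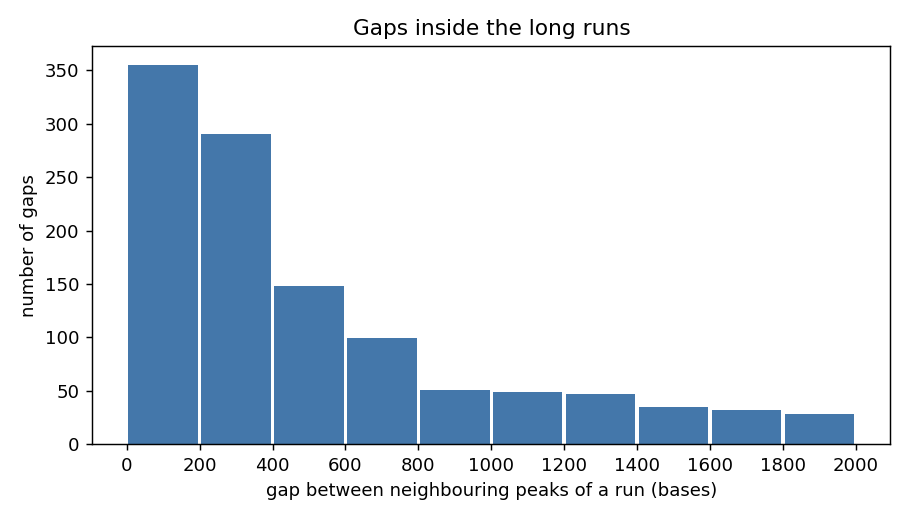
Bars count the 1134 gaps between neighbouring peaks inside the long runs, in classes of 200 bases. The class below 200 bases holds 355 gaps, and the numbers fall towards the limit of 2000 bases.

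Most runs nevertheless held at least 1 wide gap. In 113 of the 177 runs the largest gap was 1000 bases or more, and its median over runs was 1242 bases. In 15 runs every gap was below 500 bases. To see how far the runs would read as broad domains, gaps below a limit were closed, a step chosen after the values were seen. Closing gaps below 200 bases left 956 pieces, and 28 runs then held a piece of 4000 bases or more. With gaps below 500 bases closed, 590 pieces were left, with a median of 3 pieces per run, and 83 runs (46.9%) held a piece of 4000 bases or more. With gaps below 1000 bases closed, 64 runs were 1 piece and 139 runs (78.5%) held a piece of that width.

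Spacing varied within most runs. The distance between the centres of neighbouring peaks had a median of 1260 bases, with quartiles of 814 and 1866 bases. Within a run, the coefficient of variation of this distance (its SD divided by its mean) was 0.43 in the median run, between extremes of 0.13 and 0.87. It was below 0.3 in 29 of the 177 runs. Distances between peak centres thus varied within most runs, as the drawing of the named runs shows. Whether peaks form tight groups within a run, or are spaced more or less evenly than by random placement, was not tested.

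**Figure D3:**
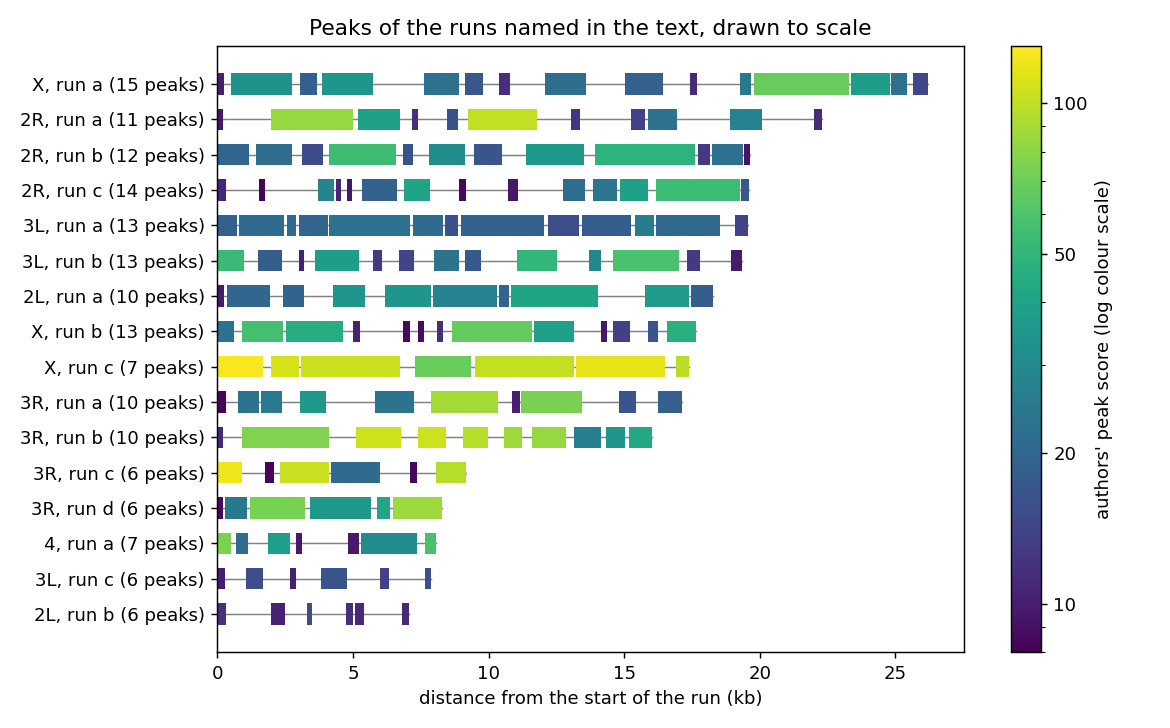
Each row is 1 of the 16 runs named by the rule in the methods, ordered by length and labelled by arm, with letters from the longest named run of that arm. Blocks are its peaks, drawn to scale by distance in kb from the start of the run and coloured by the authors' score on a log colour scale, and the grey line spans the run. The longest run measures 26219 bases, and 2 rows (3L run a and X run c) are nearly filled with blocks of even colour.

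Peaks inside a run differed widely from each other. Member peaks were a median of 577 bases wide, with quartiles of 328 and 1132 bases and a range from 200 to 3979 bases. Of the 1311 members, 268 (20.4%) were narrower than 300 bases and 133 (10.1%) were 2000 bases or wider, and the latter held 31.8% of the members' summed width. In the median run the widest peak was 7.98 times as wide as the narrowest and held 31.8% of the covered bases. Scores, whose scale neither the header nor the labels give, had a median of 18.3 over members, with quartiles of 12.0 and 33.2 and a range from 6.60 to 250. The highest score of a run was a median of 5.14 times its lowest, with quartiles of 3.66 and 7.85. Scores thus differed widely within most runs. The ratio is not given here for other sets of peaks, so it is not shown to be particular to long runs.

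Width and score went together among members, with a Spearman's rho of 0.80 over 1311 peaks, and the widest peak of a run also had its highest score in 96 of 177 runs (54.2%). Neighbours inside a run were much less alike. Over the 1134 neighbouring pairs, rho was 0.07 for widths and 0.15 for scores, pairs of a run sharing their members. The score of a peak thus said little about that of the peak beside it.

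The outermost peaks of the runs had lower median widths than those between them, with much overlap. The first and last peaks had median widths of 457 and 478 bases, against 641 for the second, 598 for the inner and 690 for the second to last peaks. Median scores were 17.1 and 15.8 at the ends, and 18.8, 18.6 and 20.4 in the same order for the others. The mean width of the end peaks was below the mean width of the peaks between them in 121 of 177 runs (68.4%), and the mean score in 109 (61.6%). Set against the median of the peaks between them, it was lower in 92 runs (52.0%) for width and in 87 (49.2%) for score, so the count depends on the summary used. The lowest score of a run stood at an end in 70 runs (39.5%), the highest score in 50 (28.2%), the narrowest peak in 53 (29.9%) and the widest in 43 (24.3%). End peaks were 27.0% of all members, a share over peaks and not over runs, so it is only a rough guide to these counts. Ties went to the earlier peak of the run. In the 664 runs of 3 to 5 peaks without a broad peak, ends and inner peaks had median widths of 565 and 578 bases and median scores of 17.4 and 17.5. Over the long runs the same values were 463 and 633 bases and 16.5 and 18.9. Among the peaks under 4000 bases of the 63 runs with a broad peak they were 579 and 642 bases and 18.9 and 21.9, so lower medians at the ends were also seen there. Quartiles overlapped at every place in the run.

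**Figure D4:**
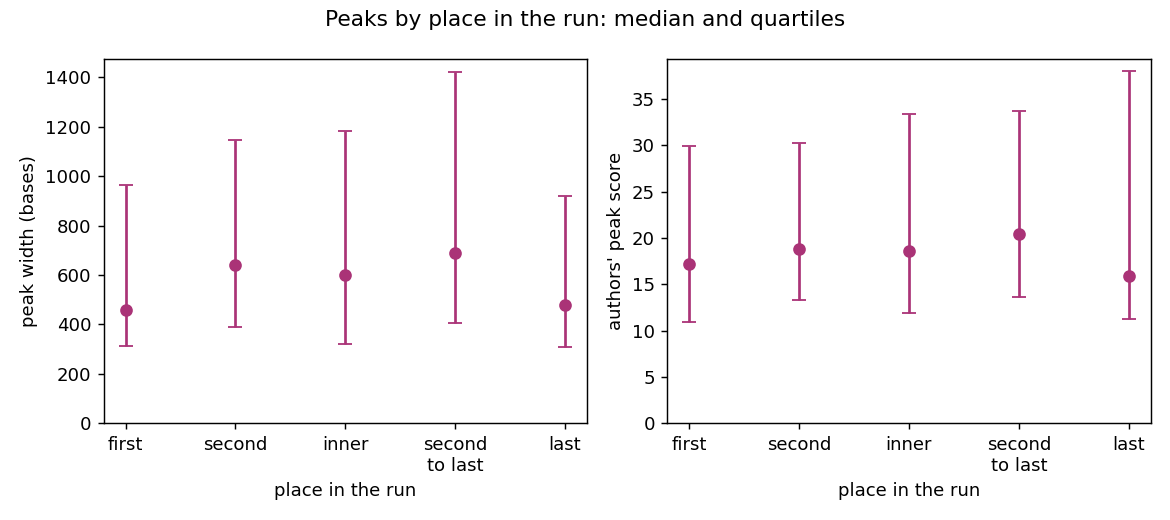
Points are medians and bars run from the lower to the upper quartile of peak width in bases (left) and of the authors' score (right), by place in the run, over 177 first, 177 second, 603 inner, 177 second to last and 177 last peaks. Both medians are lowest at the ends (457 and 478 bases; 17.1 and 15.8), with quartile ranges that overlap at every place.

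The longest run lay on X from 9488461 to 9514679 (coordinates of FlyBase release 5, counted from 1). Its 15 peaks, the most of any run, filled 65.3% of 26219 bases, with gaps from 51 to 1870 bases and scores from 10.1 to 68.1. Its widest peak measured 3499 bases and also had its highest score. X held a further run with many peaks, 13 peaks in 17640 bases from 9745375 to 9763014, with a covered share of 67.5% and scores from 8.55 to 67.5. In order along that run, wide peaks stood at positions 2, 3, 8 and 9 and narrow ones of 200 to 288 bases at positions 4 to 7. The narrow ones were not a group apart, since the largest gap, 1573 bases, lay between peaks 4 and 5.

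The next longest runs were on 2R. The second longest measured 22308 bases from 3698637 to 3720944, with 11 peaks and a covered share of 50.7%. It was loosely spaced, with a median gap of 1167 bases, and held 2 strong peaks with scores of 83.4 and 101 among 9 peaks that scored 9.50 to 39.2. The third, from 11625522 to 11645177, had 12 peaks in 19656 bases and a covered share of 82.2%, with no gap above 865 bases. The fourth, from 4516638 to 4536255, had 14 peaks in 19618 bases and a covered share of 53.1%. Runs of nearly equal length thus differed in how full they were.

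The fifth longest run began at the first peak of 3L, at the telomeric end of the arm, and reached from base 68 to base 19651. Its 13 peaks covered 91.4% of 19584 bases, the second highest share of all runs. All gaps but the last were from 52 to 139 bases, and the last was 552 bases. Scores stayed between 13.9 and 25.3, so that the highest was 1.83 times the lowest although widths ran from 348 to 3066 bases. The next peak outside the run was 22243 bases away. Closing gaps below 200 bases joined 12 of these peaks into a piece of 18533 bases, the largest piece of any run at that limit.

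A run of similar evenness but with much higher scores lay in the part of X nearest the centromere, from 21558337 to 21575726. Its 7 peaks covered 91.4% of 17390 bases, with gaps from 52 to 537 bases. Their scores were 69.0 to 126 with a median of 104, the highest median of the 177 runs. The highest score was again 1.83 times the lowest. The lowest score of this run lay above the highest score of the 3L run.

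Even scores were rare and were also seen in weak, open runs. In 9 of 177 runs the highest score was less than 2 times the lowest. The 2 runs with the lowest covered shares were among them. On 2L from 21526921 to 21533975, 6 peaks of 204 to 546 bases covered 27.1% of 7055 bases and scored 10.5 to 15.1, the smallest ratio of all runs (1.44). On 3L from 10669250 to 10677120, 6 peaks covered 32.3% of 7871 bases with gaps from 803 to 1339 bases and scores from 9.96 to 16.4. This 3L run was regularly spaced, with a coefficient of variation of centre distances of 0.15. At the other extreme, 28 runs had a ratio of 10 or more.

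The fullest run was on 3R from 5352934 to 5361216, where 6 peaks covered 91.9% of 8283 bases and no gap exceeded 232 bases. In contrast to the similarly full runs on 3L and X its scores were uneven, from 8.49 to 85.2. The longest run of 3R lay from 18447258 to 18464382, with 10 peaks in 17125 bases, a covered share of 62.9% and scores from 8.36 to 87.9. On 2L the longest run lay from 16265927 to 16284193, with 10 peaks in 18267 bases, a covered share of 75.9% and a median gap of 110 bases. The other run with 13 peaks lay on 3L from 17982108 to 18001466, with a covered share of 58.7% of 19359 bases and scores from 9.66 to 58.7. The small and mostly heterochromatic chromosome 4 had a single long run, from 340687 to 348757, with its first 7 peaks. They covered 60.8% of 8071 bases and scored 9.55 to 75.2.

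Scores of 100 or more were reached by 30 of the 1311 members (2.29%), in 21 of the 177 runs. Over all arm peaks the share was 6.75%, and over arm peaks under 4000 bases it was 4.02%. The highest score, 250, belonged to the second peak of a run of 9 on 3R, a peak of 3298 bases from 6209456 to 6212753. The first peak of that run, next to it from 6205116 to 6209094, scored 231 and was the widest of all members at 3979 bases. The others of the 5 highest were a peak on X from 6229202 to 6232577 (score 243), the first peak of a run on 3R from 21940941 to 21943232 (216) and a peak of 1719 bases on 3L from 16045709 to 16047427 (205). The peaks on either side of the X peak scored 10.3 and 11.5, and the median of its run was 13.9.

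By the median score of the run, the X run from 21558337 was followed by 2 runs on 3R. The first, from 8292778 to 8308801, had 10 peaks and a median score of 80.005. Its first peak scored 10.9, its next 6 peaks scored from 76.1 to 105, and its last 3 scored from 25.8 to 42.4. The second, from 23346902 to 23356079, had 6 peaks with scores of 123, 8.21, 103, 21.1, 8.46 and 94.9 in order along the arm, 3 strong peaks with weaker ones between them. It lay 169748 bases from the next peak on its left.

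Beside the other peaks of the arms, members of long runs had medians of width and score between those of unlinked peaks and of runs with a broad peak. Their median width was 577 bases, against 608 in runs of 2 to 5 peaks (4509 peaks), 847 in runs of 6 or more with a broad peak (566 peaks) and 538 for the 1633 peaks linked to no other. Since broad peaks were barred from the long runs, the fairer view is of peaks under 4000 bases. Among these the median width was 577 bases for members, 575 in runs of 2 to 5, 635 in runs with a broad peak and 507 for unlinked peaks. Their median score percentile, by rank among all arm peaks, was 50.8 for members, 48.6 in runs of 2 to 5, 58.2 in runs with a broad peak and 40.4 for unlinked peaks. Of the members, 5.11% were among the highest-scoring 10% of all arm peaks, and 8.62% among the highest-scoring 10% of the 7628 arm peaks under 4000 bases. Among the lowest-scoring 10% of the same lists were 8.01% and 7.48% of the members. Gaps were also alike, with medians of 326 bases in long runs, 345 in runs of 2 to 5 and 410 in runs with a broad peak. The runs with a broad peak were longer, with a median of 18827 bases, and fuller, with a median covered share of 79.7%, which their definition favours. The median covered share was 66.0% in long runs and 77.4% in runs of 2 to 5 peaks, some of which held a broad peak. Runs of few peaks also hold fewer gaps per peak, which favours a higher share by construction. In the runs of 5 without a broad peak the median share was 67.4%, close to that of the long runs.

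The arms differed more in how many runs they held per Mb than in the share of their peaks in such runs. There were 50 runs on 3R, 46 on 2R, 30 on 3L, 28 on 2L, 22 on X and 1 on 4. Per Mb between the first and last peak, 2R had 2.18 runs, 3R 1.79, 3L 1.23, 2L 1.22, chromosome 4 1.02 and X 0.98. The share of an arm's peaks that were members was 17.3% on 2R, 17.0% on X, 16.7% on 3R, 16.3% on 2L and 14.3% on 3L. X thus stood lowest by runs per Mb and second among the large arms by share of peaks. Chromosome 4 had 7 of its 26 peaks in its run.

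The runs of each arm spread over a wide range of lengths. Mean lengths on the large arms were 9473 ± 3046 bases on 2L (SD, n = 28 runs), 9488 ± 4275 on 2R (n = 46), 10266 ± 4433 on 3L (n = 30), 9586 ± 3374 on 3R (n = 50) and 10741 ± 5133 on X (n = 22). Mean covered shares on the large arms ran from 64.5% ± 12.7 (SD) on 3L to 66.5% ± 10.9 on 2R. Each SD is the spread of single runs, and the differences between the arms' means were not tested. Among the large arms, the median score of members ran from 16.4 on 2R to 20.3 on 3R. The medians of all peaks of these 2 arms were 18.3 and 18.1. The 7 members on chromosome 4 had a median score of 30.8.

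Along the arms, long runs were found where peaks were many. Each large arm was divided into 10 equal bins, numbered from its first to its last peak. Over these 50 bins, Spearman's rho between the number of long runs and the number of all peaks was 0.83, which holds the members themselves. Bin 8 of 3R held 10 runs among 288 peaks and bin 3 of 2R held 9 among 223. Bin 1 of 3L had the most peaks of any, 338, but 6 runs. The 3 bins without a run, on 2L, 3L and X, held 35, 53 and 25 peaks. In the 1 Mb nearest the centromere of the large arms, 36 of 225 peaks (16%) were members of 5 runs, and in the 1 Mb nearest the telomere 62 of 431 (14.4%) were members of 8. Both shares were near the 16.3% of all arm peaks. Among fixed windows of 1 Mb counted from the start of each arm, the one with the most runs lay on 2R from 6000001 to 7000000. It held 6 runs among 139 peaks, and windows placed otherwise could hold as many.

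**Figure D5:**
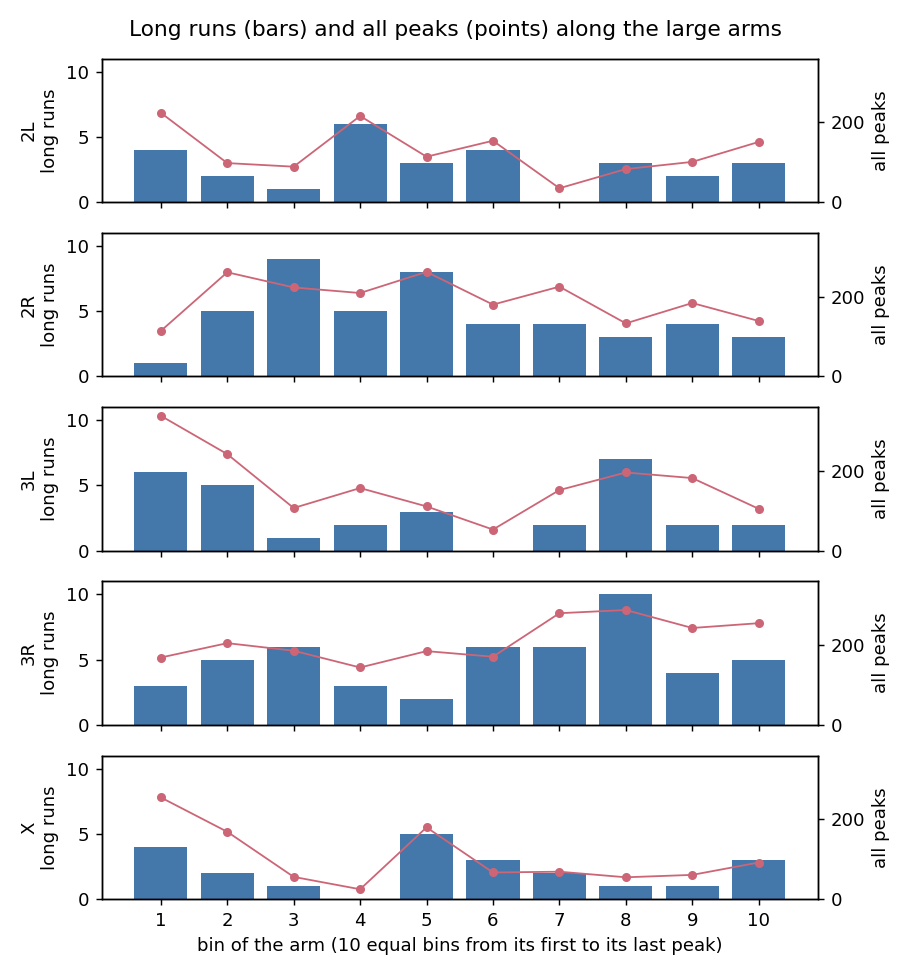
Bars give the number of long runs (left axis) and points the number of all peaks (right axis) in 10 equal bins of each of the 5 large arms, counted from the first to the last peak of the arm. The arm's telomere is at the left on 2L, 3L and X and at the right on 2R and 3R. Bars tend to be high where points are high, as in bin 8 of 3R with 10 runs and 288 peaks.

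Most runs stood apart from other long runs but not from other peaks. The distance to the next long run on the arm had a median of 339750 bases, with quartiles of 128412 and 922766 bases (n = 171 pairs). The next peak outside a run lay at a median of 7719 bases (n = 352 flanks), and 60 runs had another peak less than 3000 bases away. No peak lay within 10000 bases on either side of 40 runs. The nearest peak of 4000 bases or more was a median of 78240 bases away, and 21 of the 176 runs on the large arms had one within 10000 bases.

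A few runs followed each other closely. In 6 pairs the distance was below 10000 bases, and these formed 5 stretches, chosen after the values were seen. The largest lay on 3R from 8292778 to 8328903 and joined 3 runs with 22 peaks, which covered 54.4% of 36126 bases. The run with the median score of 80.005 was the first of these. It was 2269 bases from the second, which had 6 peaks and a median score of 37.0. The third, a further 5551 bases on, had 6 peaks and a median score of 15.8. The stretch on 3L from 17982108 to 18011124 joined the run of 13 peaks to a run of 6, with median scores of 18.3 and 19.5. The other 3 stretches were on 2R, from 3606159 to 3639456, from 5429806 to 5458908 and from 11978701 to 12001189, with 2 runs each.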

How the data were processed

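S2-DRSC cells were profiled by ChIP-seq with 2 H3K4me1 and 2 input libraries. The deposited data used were 1 peak list on FlyBase release 5, per the file headers, with MACS named in the source column. The submitters' processing notes name CASAVA (1.7.0.2 and 1.7.0.3), BWA, MACS2 and BDGP5. How libraries were pooled, the call threshold and the handling of repeated reads are not stated in these sources. The authors deposited a start, an end and a score per peak, and the scale of the score is unknown. The read depth was not analysed here.

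Starts were taken to count from 0. A width is end minus start, and a score percentile is the rank among the 8019 arm peaks. Runs were found with pandas 2.3.3 and numpy 2.4.6 in Python 3.11.15, correlations were computed with scipy 1.17.1 and plots drawn with matplotlib 3.10.9. The linking was tested on simulated data. Runs named by position are the 5 longest, the 5 with the most peaks, the longest of each arm, the 2 fullest, the 2 emptiest and the 3 with the highest median score, and peaks so named are the 5 highest-scoring members. The members and lists were chosen with earlier results of these data known. The reference gene table is on Release 6, so genes and sequences were not analysed here. Alternatives varied the linking distance, the run size, the limit on broad peaks, the score threshold and the narrowest peak.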

Additional observations from a re-analysis of the deposited data

How the results depend on the processing

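The numbers of runs and members depend on the limits. Over 7 alternatives, 33 of 49 repeated values stayed within 1.5 times (counts), within the exact 95% interval of 15.5 to 17.2% (share of arm peaks) or within 1 SD over runs, gaps or members (medians), and 16 moved. For medians this spread is that of single runs, gaps or members and is too wide to show that they are stable. The interval for the share treats peaks as independent draws. Peaks became members only in whole runs, so this interval is too narrow to measure the spread of the share. Median lengths ran from 7252 to 12555 bases, covered shares from 59.7% to 74.5%, gaps from 255 to 390 bases and percentiles from 49.9 to 61.3. Linking below 1000 bases gave 89 runs and 629 members (7.84% of arm peaks), and linking below 3000 bases 21.6% of arm peaks. With at least 5 peaks there were 281 runs (22.8%), and with at least 8 peaks 62 runs and 579 members (7.22%). Keeping runs with a broad peak gave 23.4%. Without the lowest-scoring 25% of arm peaks there were 71 runs and 515 members (8.56%), and without peaks narrower than 300 bases 81 runs and 590 members (9.23%). In both, weak or narrow links are removed by construction, so chains break. No paired analysis was possible because values per library are not part of the 1 list used, and replicates could not be left out either. Depth was not analysed here, so it is unknown how many gaps hold too few reads for a call.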

Other observations

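The linking was also applied to the heterochromatic Het scaffolds, which the rule for the long runs leaves out, after the values were seen. Among their 271 peaks there were 5 runs of 6 or more peaks, with 42 peaks (15.5%), and none of these runs held a peak of 4000 bases or more. On 2RHet there were 4 such runs, and on 3LHet there was 1. The longest lay on 3LHet from 566837 to 579655, with 10 peaks in 12819 bases, a covered share of 62.7% and a median score of 23.2. The run on 2RHet from 1118408 to 1129279 had the most peaks, 11, with a median score of 72.5, a covered share of 66.6% and scores from 30.5 to 168. On the arms, 2 runs had a higher median score than this one.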
